A study of Mus musculus with 12 samples.

Results

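The genes described here are 10 transcription factor genes that mark position along the limb: Hoxa9, Hoxa10 and Hoxa11 on chromosome 6, Hoxc8, Hoxc9 and Hoxc10 on chromosome 15, Hoxd9 and Hoxd10 on chromosome 2, Tbx4 on chromosome 11 and Pitx1 on chromosome 13. They were taken by symbol, through their Ensembl IDs, from count tables of 57010 gene IDs. The rule uses symbols and no measured value. The question was whether cells of the compared groups carried the same positional signature. Of the 10 genes, 8 had counts and passed the expression filter, which left 14253 genes for testing. Hoxc8 and Hoxc9 were listed at 0 in every library.

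RNA was sequenced from primary mouse chondrocytes, the cells that make cartilage matrix, in 12 libraries. All cells were of wild-type genotype. The 4 control libraries are labelled as controls, and what those cells received is not stated. The 4 libraries called SIRT5_WT came from cells transfected with a wild-type plasmid, read here as wild-type SIRT5, and the 4 called SIRT5_F101L from cells transfected with a plasmid for the SIRT5F101L mutant. SIRT5, a sirtuin found mainly in mitochondria, strips malonyl and similar acyl marks from lysine side chains. The promoter and species of the plasmid inserts, the dose, the time after transfection, and the strain, age and cartilage of origin of the mice are not given in the labels. The labels do not say whether libraries of a group came from separate cultures or animals, so p-values measure the spread between these libraries, which may be technical. Libraries are numbered within a group by accession order, and equal numbers in different groups carry no pairing.

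As background, Hox genes lie in 4 clusters, HoxA to HoxD, and are numbered by their place along the cluster. Low-numbered genes act toward the head and high-numbered ones toward the tail and the tip of the limb. In the limb, group 9 and 10 genes pattern the upper segment, group 11 genes the middle segment and group 13 genes the hand or foot. Pitx1 and Tbx4 are the classical hindlimb selector genes, while Tbx5 is their forelimb counterpart. Connective tissue cells such as fibroblasts and chondrocytes keep much of this pattern in culture.

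Library totals ran from 15095357 to 24242139 counts. Sirt5, with 0% of its exon sequence inside other genes' spans, had few counts: the control libraries averaged 0.688 ± 0.169 CPM, the SIRT5_WT libraries 0.384 ± 0.229 and the SIRT5_F101L libraries 0.721 ± 0.346. CPM is the TMM-scaled count relative to library size, and ± is the SD over 4 libraries unless said otherwise. It was not called in any comparison (edgeR adjusted p = 0.143, 0.954 and 0.460), so the group names below are those of the labels only. On the second principal component SIRT5_F101L replicate 1 lay apart from its group, at 20.3 against -23.5 to -17.0, and next to the SIRT5_WT libraries, at -1.07 to 20.1. On the first component too it stood at 33.4, beside 34.3 to 37.3 in SIRT5_WT and 40.01 to 40.7 in the other SIRT5_F101L libraries. Markers fixed for chondrocytes were all present, with summed levels of 7348 to 9229 CPM in control, 2612 to 2707 in SIRT5_WT and 2116 to 2349 in SIRT5_F101L libraries. Sox9, the master regulator of chondrocytes, averaged 142 CPM in control, 124 in SIRT5_WT and 113 in SIRT5_F101L, and Col2a1, the cartilage collagen, 6719, 1665 and 1312. Of the 10 chondrocyte markers, 8 fell in each comparison with control; Acan and Hapln1 rose in SIRT5_WT and Hapln1 rose in SIRT5_F101L. Of all tested genes, 56.8% were called in SIRT5_WT and 60.7% in SIRT5_F101L, 28.1% and 30.7% as lower. Acan, the cartilage proteoglycan, averaged 133 CPM in control, 185 in SIRT5_WT and 143 in SIRT5_F101L. Fibroblast markers summed to 30670 to 36760 CPM in control, 11080 to 12750 in SIRT5_WT and 11110 to 12470 in SIRT5_F101L. In bulk RNA, fewer cells of a type and less RNA per cell cannot be told apart.

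Promoter sequences are shown for a HoxA pair that fell in both plasmid groups (Hoxa10 and Hoxa11), a HoxD gene that did not pass the test in either (Hoxd9), and Tbx4. Each is the 250 bases before a start of the gene on its own strand, from RefSeq (GRCm38.p6). CG dinucleotides, the sites of DNA methylation, are in capitals. RefSeq windows were found for 6 of the 10 genes.
Hoxa10, chr6:52240855-52241104, minus strand: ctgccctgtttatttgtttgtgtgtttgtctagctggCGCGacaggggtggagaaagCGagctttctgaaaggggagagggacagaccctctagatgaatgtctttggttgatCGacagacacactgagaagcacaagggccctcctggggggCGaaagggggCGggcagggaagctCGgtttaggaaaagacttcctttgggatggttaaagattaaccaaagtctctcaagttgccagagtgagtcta
Hoxa11, chr6:52245811-52246060, minus strand: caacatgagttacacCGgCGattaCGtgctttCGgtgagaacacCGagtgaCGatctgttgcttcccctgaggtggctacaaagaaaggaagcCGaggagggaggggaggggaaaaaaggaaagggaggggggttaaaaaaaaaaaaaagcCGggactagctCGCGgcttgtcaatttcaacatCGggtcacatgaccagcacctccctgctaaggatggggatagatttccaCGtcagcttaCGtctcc
Hoxd9, chr2:74697513-74697762, plus strand: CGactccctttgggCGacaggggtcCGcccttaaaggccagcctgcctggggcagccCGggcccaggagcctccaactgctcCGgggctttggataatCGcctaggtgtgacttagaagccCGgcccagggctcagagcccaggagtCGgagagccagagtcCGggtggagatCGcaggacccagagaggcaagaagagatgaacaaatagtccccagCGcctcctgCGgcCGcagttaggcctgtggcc
Tbx4, chr11:85896515-85896764, plus strand: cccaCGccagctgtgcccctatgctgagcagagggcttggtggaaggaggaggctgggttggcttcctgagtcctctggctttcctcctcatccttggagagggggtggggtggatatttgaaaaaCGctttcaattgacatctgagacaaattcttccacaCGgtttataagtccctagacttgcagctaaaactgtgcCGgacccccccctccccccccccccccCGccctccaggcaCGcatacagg
The Hoxa10 window held 7 CG, a number reached by 46.3% of all 32851 promoter windows of this length. A second Hoxa10 start, whose window is not printed, had 20, which 17.95% of windows reach. The CG number of Hoxa10 thus depends on the start taken. Hoxa11 and Hoxd9 held 13 each, which 31.5% of windows reach, and Tbx4 held 6, which 50.4% reach. The search was for CG, which reads the same on both strands. The other windows not printed held 3 CG (Hoxa9) and 20 (Hoxd10).

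The hindlimb genes Pitx1 and Tbx4 were expressed in every library of every group and fell in both plasmid groups. Pitx1, a homeodomain factor that sets hindlimb identity and switches on Tbx4, had 166, 158, 164 and 158 CPM in the control libraries, 109, 128, 125 and 121 in SIRT5_WT, and 121, 89.0, 101.1 and 98.2 in SIRT5_F101L. All control libraries were above all plasmid libraries. Against control it fell by 0.42 ± 0.08 on the log2 scale (SE; 1.34-fold lower) in SIRT5_WT and by 0.66 ± 0.08 (1.58-fold lower) in SIRT5_F101L (edgeR quasi-likelihood test, adjusted p = 9.29e-05 and 3.37e-07). Tbx4, a T-box factor needed for hindlimb outgrowth, had 51.0, 55.4, 49.2 and 52.7 CPM in control, 40.4, 38.9, 40.1 and 38.2 in SIRT5_WT, and 33.8, 41.7, 39.5 and 38.4 in SIRT5_F101L. Again no plasmid library reached a control library. Its change was -0.40 ± 0.07 in SIRT5_WT (1.32-fold lower) and -0.44 ± 0.07 in SIRT5_F101L (1.36-fold lower), with edgeR adjusted p = 7.71e-05 and 2.46e-05.

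**Figure D1:**
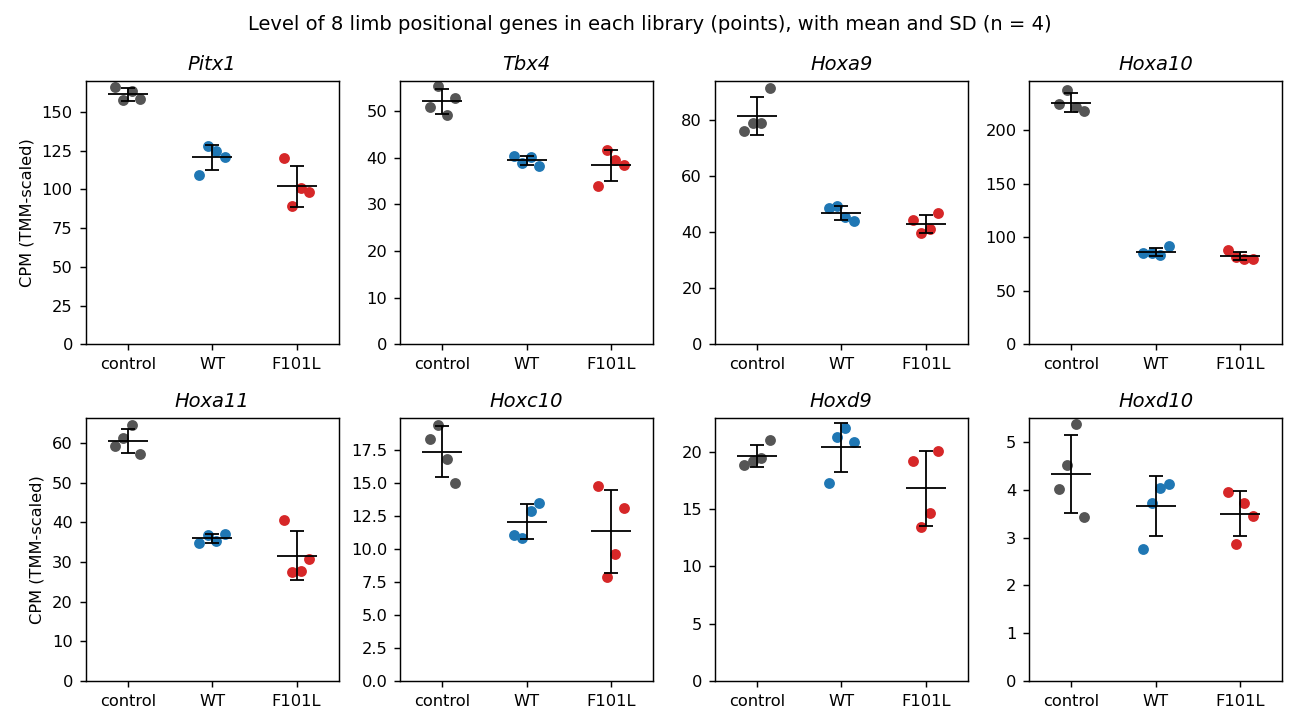
Levels of the 8 genes with counts, in TMM-scaled CPM on a linear axis that starts at 0, in each of 12 libraries (points), with the mean and SD of the 4 libraries of a group (bars). For Pitx1, Tbx4, Hoxa9, Hoxa10, Hoxa11 and Hoxc10 the plasmid libraries all lie below the control libraries, and for Hoxd9 and Hoxd10 the groups overlap.

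The forelimb selector Tbx5 was also transcribed, at a lower level. It averaged 15.5 ± 2.08 CPM in control, 13.7 ± 0.921 in SIRT5_WT and 14.4 ± 0.994 in SIRT5_F101L, and its changes against control, -0.18 and -0.11 on the log2 scale, did not pass the test (edgeR adjusted p = 0.147 and 0.385). Without control replicate 3 the SIRT5_WT change of Tbx5 was -0.26, with an edgeR adjusted p of 0.0435. Per kilobase of exon, Tbx4 stood above Tbx5 in each library: 4.66 ± 0.489 times in control, 3.97 ± 0.205 in SIRT5_WT and 3.66 ± 0.300 in SIRT5_F101L. The lowest ratio in any library was 3.37. For Pitx1 the ratio to Tbx5 was 18.6 ± 2.75 in control, 15.7 ± 1.99 in SIRT5_WT and 12.6 ± 2.28 in SIRT5_F101L. With exon bases inside other genes' spans left out of the length, it was 41.2 ± 6.08, 34.7 ± 4.40 and 27.8 ± 5.05. The hindlimb pair thus outranked Tbx5 in all 12 libraries. These ratios are a description, with no test.

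Of the 8 tested genes, Hoxa10 fell most. This gene, which patterns the upper limb segment, had 225, 238, 222 and 218 CPM in control, 85.5, 85.4, 83.2 and 92.0 in SIRT5_WT, and 87.8, 81.7, 79.98 and 79.5 in SIRT5_F101L. The lowest control library was above the highest plasmid library by a wide margin. The log2 change was -1.38 ± 0.06 in SIRT5_WT and -1.46 ± 0.06 in SIRT5_F101L, or 2.61-fold and 2.75-fold lower (edgeR adjusted p = 4.58e-14 and 1.98e-14).

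Hoxa9, its neighbour in the cluster and a partner in the upper limb, had 76.2, 78.7, 78.9 and 91.2 CPM in control, 48.7, 49.2, 45.4 and 44.0 in SIRT5_WT, and 44.4, 39.6, 41.0 and 46.8 in SIRT5_F101L. It fell by 0.80 ± 0.07 in SIRT5_WT and by 0.92 ± 0.07 in SIRT5_F101L on the log2 scale (edgeR adjusted p = 1.4e-08 and 1.52e-09). Hoxa11, which patterns the forearm and shank, had 59.1, 61.2, 64.5 and 57.2 CPM in control, 34.8, 36.7, 35.2 and 37.1 in SIRT5_WT, and 40.5, 27.6, 27.8 and 30.7 in SIRT5_F101L. Here the high SIRT5_F101L value was that of replicate 1, still below every control library. Hoxa11 fell by 0.75 ± 0.10 in SIRT5_WT and by 0.94 ± 0.10 in SIRT5_F101L (edgeR adjusted p = 1.35e-06 and 6.47e-08). Of Hoxa11's exon sequence, 35.0% is shared with the antisense transcript Hoxa11os, and the strand setting of the counting is not given in the sources used here, so reads of the pair cannot be told apart there. The level of Hoxa11os was 2.08 ± 0.607 CPM in control, 1.47 ± 0.576 in SIRT5_WT and 1.09 ± 0.396 in SIRT5_F101L.

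The changes differed in size between neighbouring genes of one cluster. Hoxa10 stood at 2.80 ± 0.286 times the CPM of Hoxa9 in control and at 1.85 ± 0.162 and 1.92 ± 0.157 times in SIRT5_WT and SIRT5_F101L. The control libraries ran from 2.39 to 3.03 and the plasmid libraries from 1.70 to 2.09. Against Hoxd9 in the HoxD cluster, Hoxa10 stood at 11.5 ± 0.882 times in control, 4.28 ± 0.518 in SIRT5_WT and 5.02 ± 0.935 in SIRT5_F101L, again without overlap between control and plasmid libraries.

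Hoxc10, a hindlimb-enriched Hox gene, had 18.4, 19.4, 16.8 and 14.97 CPM in control, 11.1, 10.8, 12.9 and 13.5 in SIRT5_WT, and 14.8, 7.86, 9.63 and 13.1 in SIRT5_F101L. Spread within SIRT5_F101L was wide, with replicate 1 just under the lowest control library. Hoxc10 fell by 0.53 ± 0.15 in SIRT5_WT and by 0.62 ± 0.15 in SIRT5_F101L on the log2 scale (edgeR adjusted p = 0.00541 and 0.00145). In the annotation, 66.1% of its exon sequence lies within the span of Hoxc5.

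The HoxD genes did not pass the test against control. Hoxd9 had 18.8, 19.2, 19.5 and 21.0 CPM in control, 17.3, 21.3, 22.1 and 20.9 in SIRT5_WT, and 19.2, 13.4, 14.6 and 20.1 in SIRT5_F101L. SIRT5_WT libraries fell on both sides of the controls, and 2 of the SIRT5_F101L libraries lay within the control range while 2 lay below it. The log2 change of Hoxd9 was 0.052 ± 0.12 in SIRT5_WT (95% interval -0.19 to 0.295, edgeR adjusted p = 0.726) and -0.22 ± 0.12 in SIRT5_F101L (-0.47 to 0.023, edgeR adjusted p = 0.108). Without SIRT5_F101L replicate 1 or replicate 4, the second value was -0.29 or -0.32 and passed the test (edgeR adjusted p = 0.0275 and 0.0300). Hoxd10, the gene with the fewest counts and with as few as 44 counts in a library, had 4.01, 4.51, 5.38 and 3.44 CPM in control, 2.76, 3.72, 4.04 and 4.12 in SIRT5_WT, and 3.96, 2.86, 3.73 and 3.46 in SIRT5_F101L. All 3 groups overlapped. Its log2 changes were -0.25 ± 0.18 (95% interval -0.63 to 0.14) and -0.30 ± 0.18 (-0.69 to 0.083), with edgeR adjusted p = 0.261 and 0.165. A fall of the size seen in Hoxa9 lay outside the interval for both HoxD genes, whereas one of the size seen in Tbx4 lay outside it only for Hoxd9 in SIRT5_WT.

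Counted together, 6 of the 8 tested genes fell in SIRT5_WT against control and none rose. Among all 14253 tested genes 56.8% were called in that comparison, 28.1% as lower and 28.7% as higher. In SIRT5_F101L against control, 6 of 8 fell and none rose, where 60.7% of all genes were called, 30.7% as lower and 30% as higher. Groups did not overlap for 6 of 8 genes in each comparison, against 53.5% and 51.3% of all tested genes. The median log2 change of the 8 genes was -0.47 in SIRT5_WT and -0.64 in SIRT5_F101L, and that of all tested genes -0.01 and -0.02. Both comparisons use the same 4 control libraries.

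Between the plasmid groups, none of the 8 genes was called, and for none did the groups lie apart. Over all genes, edgeR called 0.0421%, 0.014% as lower and 0.0281% as higher (6 genes; DESeq2 called 43, and 1701 had an unadjusted p under 0.05), and 4.02% had groups that did not overlap. Each of the 8 genes was lower in SIRT5_F101L than in SIRT5_WT in the fit, by 0.04 to 0.27 on the log2 scale. The largest differences were in Hoxd9 (-0.27, 95% interval -0.52 to -0.030, edgeR adjusted p = 0.384) and Pitx1 (-0.24, -0.40 to -0.079, edgeR adjusted p = 0.355). For Hoxa10 the interval ran from -0.20 to 0.048, for Tbx4 from -0.19 to 0.11, for Hoxa9 from -0.28 to 0.032 and for Hoxa11 from -0.39 to 0.021. Hoxc10, at -0.09 (-0.41 to 0.23), and Hoxd10, at -0.05 (-0.44 to 0.34), were the least precisely measured.

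This comparison rested on SIRT5_F101L replicate 1, which had the highest Pitx1, Hoxa10, Hoxa11, Hoxc10 and Hoxd10 and the lowest Tbx4 of its group. Without it, 3 of the 8 genes were lower in SIRT5_F101L than in SIRT5_WT: Pitx1 by 0.325 on the log2 scale (edgeR adjusted p = 0.000548), Hoxa11 by 0.325 (0.00313) and Hoxd9 by 0.342 (0.0397). In the same fit 2213 of all genes were called. Leaving out any other single library gave 0 to 3 genes in all and none of the 8. The library also differed in the slope of expression on transcript length, at -0.059 against 0.081 to 0.103 in the other SIRT5_F101L libraries, -0.036 to 0.052 in SIRT5_WT and -0.066 to -0.044 in control. The part of that slope in these differences was not tested.

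Levels can be compared between genes only per length. In control, Hoxa10 ranked first with 69.0 ± 2.70 CPM per kilobase of exon, before Pitx1 with 60.8 ± 1.59, Hoxa11 with 26.5 ± 1.35, Tbx4 with 15.3 ± 0.772 and Hoxa9 with 14.6 ± 1.21. Hoxd9 (9.20 ± 0.453) and Hoxc10 (9.11 ± 1.004) followed, then Tbx5 (3.32 ± 0.446) and Hoxd10 (2.39 ± 0.453). Tbx4 and Hoxa9, Hoxd9 and Hoxc10, and Tbx5 and Hoxd10 overlapped over libraries, and the other neighbours did not. In the plasmid groups the first places were exchanged. Pitx1 led with 45.5 ± 3.08 in SIRT5_WT and 38.5 ± 4.99 in SIRT5_F101L, above Hoxa10 with 26.5 ± 1.15 and 25.2 ± 1.18. Hoxd9 stood above Hoxa9 there, at 9.55 ± 1.01 against 8.39 ± 0.451 in SIRT5_WT and 7.88 ± 1.54 against 7.70 ± 0.585 in SIRT5_F101L, with overlapping libraries. If exon bases within other genes' spans are left out of the length, a choice made after the data were seen, Pitx1 ranked first in all 3 groups (135, 100.7 and 85.3 CPM per kilobase in control, SIRT5_WT and SIRT5_F101L), because 54.9% of its exon sequence lies within such spans. On that scale Hoxc10 also moved up, to 26.9 in control, 18.6 in SIRT5_WT and 17.5 in SIRT5_F101L, above Tbx4 and Hoxa9 in each group. Hoxd10 then averaged more than Tbx5 in each group, with overlapping libraries in both plasmid groups. The order of these genes therefore depends on the length used.

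The zero values of Hoxc8 and Hoxc9, best known from the thoracic level of the trunk, need separate treatment. Both lie wholly within the span of Hoxc5 in GENCODE M21, on the same strand, with 0% of their exon bases shared with another gene's exons. Of the 39 Hox genes, 15 were listed at 0 in all 12 libraries, and 12 of those 15 have every exon within other genes' spans. None of the 24 Hox genes with counts does. The same held beyond the Hox clusters: of 1232 autosomal protein-coding genes with all exons inside other genes' spans, 90.5% were listed at 0, against 6.81% of 6054 with part of their exons inside and 17.8% of 13430 with none. Among 79 ribosomal protein genes, which every cell uses, Rpl35, Rpl35a and Rps10 were at 0, with 100%, 100% and 94.8% of exon sequence inside other spans. For Hoxc8 and Hoxc9 a listed 0 therefore cannot be read as absence of the transcript. How much was lost for Hoxc10, Pitx1, Hoxd10 and Hoxa11, which keep 33.9%, 45.1%, 50.2% and 65.0% of their exon sequence outside other spans, was not tested.

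**Figure D2:**
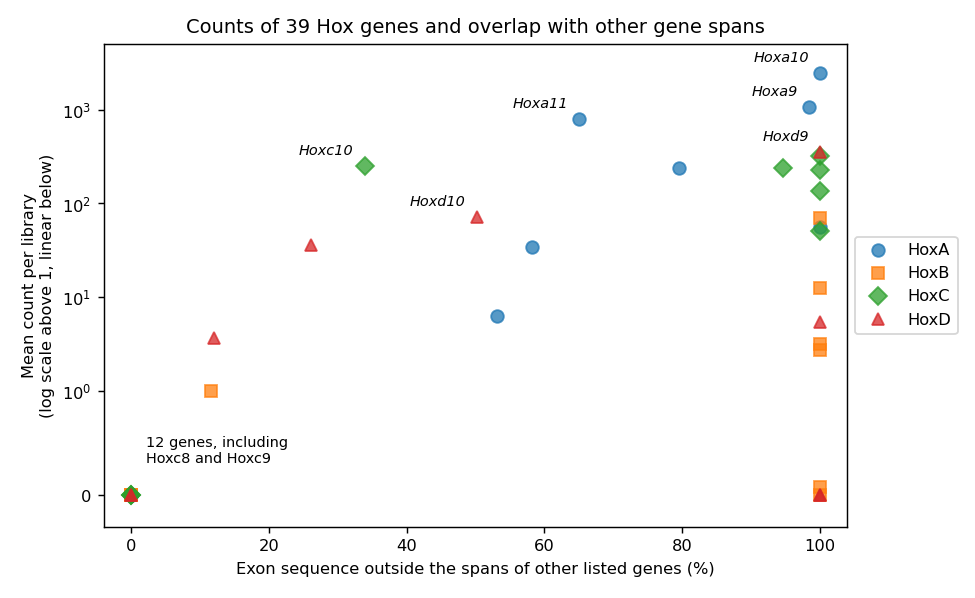
Mean count per library over 12 libraries for each of 39 Hox genes (vertical axis, logarithmic above 1 and linear below) against the percentage of exon sequence outside the spans of other annotated genes; colours and shapes give the cluster. The 12 genes at 0% outside, Hoxc8 and Hoxc9 among them, are all at 0 counts, and 3 others at 0 counts lie at 100%.

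Among the other Hox genes, only Hoxa13 and Hoxc13 were called lower in either comparison. Of the 9 other genes of groups 9 to 13, 6 were tested, and 2 of these 6 were lower in each comparison, where 28.1% and 30.7% of all tested genes were lower. Hoxa13, the hand and foot gene of the same cluster as Hoxa10, fell by 1.40 ± 0.19 in SIRT5_WT and by 1.59 ± 0.20 in SIRT5_F101L (edgeR adjusted p = 3.84e-06 and 7.87e-07), from 5.29 CPM to 1.998 and 1.76. Hoxc13, known for hair and nail, fell by 1.01 and 0.81 on the log2 scale (edgeR adjusted p = 5.2e-08 and 8.67e-07). Hoxc12 rose in SIRT5_WT, by 0.81 ± 0.27 (edgeR adjusted p = 0.0154), and had 0.22 ± 0.28 in SIRT5_F101L (0.521); its difference between the plasmid groups was not called (edgeR adjusted p = 0.403). Hoxb9, Hoxc11 and Hoxd11 were not called, with log2 changes of 0.09, 0.00 and -0.01 in SIRT5_WT and -0.14, -0.16 and -0.45 in SIRT5_F101L. Hoxd11, with 26 to 48 counts per library, had 1.98 to 2.29 CPM in control and 1.12 to 1.87 in SIRT5_F101L. These groups did not overlap, as for 51.3% of all tested genes in that comparison. Hoxd12 was listed at 0 in all libraries with its exons outside other spans, and Hoxd13, the distal-most HoxD gene, had 7 to 13 counts per library in control, 1 to 8 in SIRT5_WT and 0 to 3 in SIRT5_F101L (means of 0.529, 0.222 and 0.113 CPM) and did not pass the filter for testing. The central genes Hoxa7 and Hoxc5 and the anterior genes Hoxb4 and Hoxc4 were not called in either comparison.

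**Figure D3:**
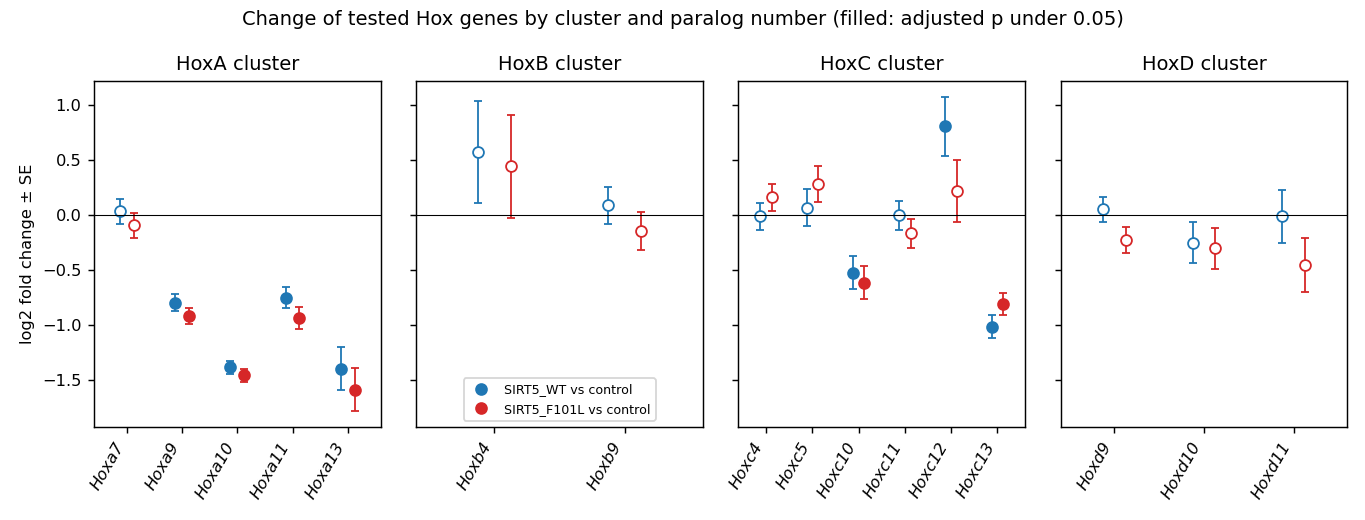
log2 fold change against control with its standard error for tested Hox genes, by cluster and paralog number, in SIRT5_WT (blue) and SIRT5_F101L (red); filled points passed the edgeR test at an adjusted p under 0.05. Hoxa9, Hoxa10, Hoxa11, Hoxa13, Hoxc10 and Hoxc13 lie below 0 in both, and the HoxB and HoxD genes are open points.

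The unequal falls shifted the makeup of the Hox transcripts. Summed over all Hox genes, the level was 492 ± 9.68 CPM in control, 279 ± 3.38 in SIRT5_WT and 263 ± 16.7 in SIRT5_F101L. The HoxA cluster held 78.8% ± 0.725 of Hox counts in control, 66.9% ± 1.39 in SIRT5_WT and 65.8% ± 2.08 in SIRT5_F101L. HoxC rose from 14.8% ± 0.729 to 21.7% ± 0.909 and 24.1% ± 2.03, and HoxD from 5.46% ± 0.252 to 9.54% ± 0.956 and 8.41% ± 0.945. The control and plasmid libraries did not overlap in any of these shares. Groups 9 to 13 together held 91.0% ± 0.814, 83.6% ± 1.12 and 81.6% ± 2.23. A share can rise while the genes behind it do not, and the only HoxC gene called higher was Hoxc12, in SIRT5_WT. Genes listed at 0 through span overlap are missing from these shares.

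**Figure D4:**
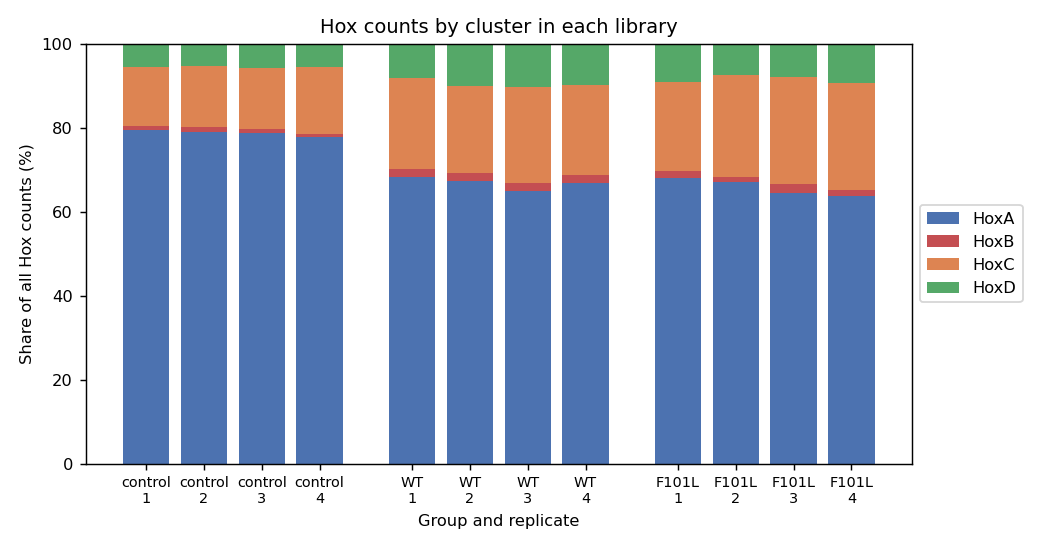
Share of all Hox counts (%) held by each Hox cluster in each of the 12 libraries, as stacked bars from 0 to 100. HoxA fills 77.8% to 79.6% of the control bars and 63.7% to 68.3% of the plasmid bars.

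Other genes of the limb programme did not move one way. Of 7 limb-field genes 2 were tested: Tbx5, and Fgf10, the growth factor that Tbx4 and Tbx5 switch on in the limb bud, which rose from 33.4 ± 2.85 CPM to 122 ± 7.59 in SIRT5_WT and 131 ± 10.8 in SIRT5_F101L (log2 changes 1.87 and 1.97, edgeR adjusted p = 3.5e-14 and 1.49e-14). Of 28 limb mesenchyme factors, 26 were tested; 13 fell and 4 rose in SIRT5_WT, and 14 fell and 5 rose in SIRT5_F101L, with a median log2 change of -0.47 and -0.36. Of all tested genes 28.1% and 30.7% were lower in these comparisons and 28.7% and 30% higher. The deepest falls in SIRT5_WT were in En1, the ventral limb factor (-2.06), Msx1, a homeodomain factor of undifferentiated mesenchyme (-1.78), and Gli2, a Hedgehog effector (-1.11). In SIRT5_F101L they were in En1 (-1.79), Lhx2 (-1.24) and Msx1 (-1.23). Twist2 (1.26 and 1.5), Tbx3 (0.85 and 0.72) and Lhx9 (0.44 and 0.49) rose in both, and Meis1, a marker of the upper limb, rose in SIRT5_F101L (0.65, edgeR adjusted p = 0.000715) and had 0.35 in SIRT5_WT (0.0538). Twist1 and Prrx2, relatives of Twist2 and Prrx1 named after their values were seen, averaged lower in both plasmid groups. Twist1 had 145 CPM in control, 78.1 in SIRT5_WT and 68.2 in SIRT5_F101L, and Prrx2 had 317, 175 and 150. Prrx1, the general limb mesenchyme factor, averaged 572 ± 23.4, 563 ± 28.6 and 605 ± 60.3 CPM, and Shox2 54.9 ± 0.954, 58.8 ± 2.29 and 60.2 ± 3.85. Neither was called, nor was the dorsal factor Lmx1b (log2 changes -0.39 and -0.22). Without SIRT5_F101L replicate 1, the SIRT5_F101L changes of Prrx1 (0.145) and Shox2 (0.15) passed the test (edgeR adjusted p = 0.0304 and 0.0428). With the length trend as an offset, the change of Prrx1 was -0.149 in SIRT5_WT, which passed the test, and -0.125 in SIRT5_F101L, which did not (edgeR adjusted p = 0.0254 and 0.0566), so its direction depends on the setting. Lmx1b in SIRT5_WT passed the test without SIRT5_WT replicate 1, SIRT5_WT replicate 2 or SIRT5_F101L replicate 1, at -0.529, -0.49 and -0.391 (edgeR adjusted p = 0.0267, 0.0433 and 0.0481).

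**Figure D5:**
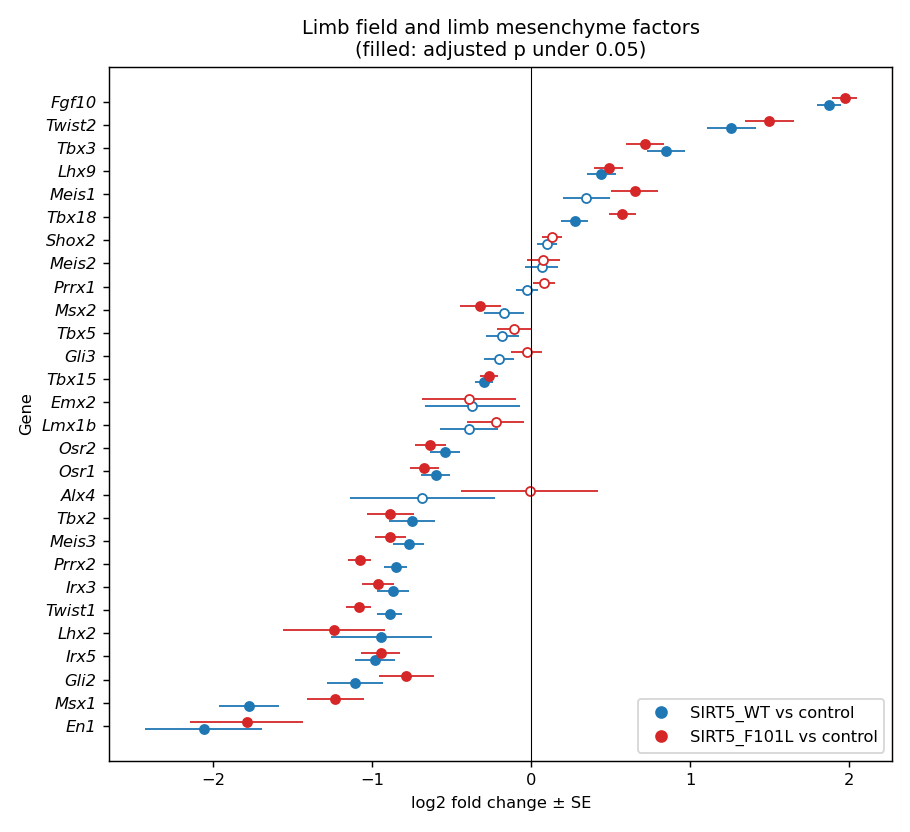
log2 fold change against control with its standard error for the 28 tested limb-field and limb mesenchyme genes, in SIRT5_WT (blue) and SIRT5_F101L (red); filled points passed the edgeR test at an adjusted p under 0.05. Fgf10 lies highest, at 1.87 and 1.97, and En1 lowest, at -2.06 and -1.79.

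Partners and regulators of Hox proteins were read from the same fit. Among the DNA-binding cofactors, Pbx2 (log2 changes -0.44 and -0.53), Pbx3 (-0.60 and -0.41) and Pknox2 (-0.94 and -0.79) fell in each comparison, and none of the list rose. Of 18 Polycomb and Trithorax genes, whose products hold Hox clusters silent or active, 10 fell and 4 rose in SIRT5_WT, and 10 fell and 3 rose in SIRT5_F101L, where 56.8% and 60.7% of all tested genes were called and 28.1% and 30.7% were lower. Kdm6b, a demethylase that removes the Polycomb mark, fell by 1.23 and 1.07, Ring1 by 0.87 and 1.08, and Cbx7 by 0.76 and 0.84, while Phc2 rose by 0.69 and 0.55 and Suz12 by 0.30 and 0.47. Kmt2a had 0.33 in SIRT5_WT and 0.49 in SIRT5_F101L (edgeR adjusted p = 0.0374 and 0.00251). Its SIRT5_WT call was lost without control replicate 1 (edgeR adjusted p = 0.0822), control replicate 3 (0.131), SIRT5_WT replicate 1 (0.172) or SIRT5_WT replicate 2 (0.0505), and under upper-quartile scaling (0.0805) or a robust prior (0.101). With the length trend as an offset, both Kmt2a calls were lost, at 0.134 in SIRT5_WT and 0.126 in SIRT5_F101L (edgeR adjusted p = 0.106 and 0.124). Of 11 Hox non-coding RNAs, 4 were tested and Hoxa11os fell in SIRT5_F101L (-0.91, edgeR adjusted p = 0.0246), a call lost without control replicate 4 or SIRT5_F101L replicates 2, 3 or 4 (edgeR adjusted p = 0.0841, 0.0614, 0.0501 and 0.0677).

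Genes of other body regions were read from the same fit. Of 5 tested craniofacial genes, 3 were called in SIRT5_WT and 2 in SIRT5_F101L, all lower, against 56.8% and 60.7% of all tested genes called and 28.1% and 30.7% lower. Dlx5, a jaw and bone factor, fell by 3.12 and 2.86 and Barx1 by 1.03 and 1.22; the third in SIRT5_WT was Dlx4 (-1.29), which averaged under 1 CPM in both groups and was named after its values were seen. Of 5 tested axial genes, 3 fell and 1 rose in each comparison. Nkx3-2 fell by 1.47 and 1.71, Meox2 rose by 0.94 and 1.10, and Meox1 had 47 to 54 counts in control libraries and 0 to 3 in plasmid libraries. Pax1 fell by 0.95 in SIRT5_WT and 1.23 in SIRT5_F101L, and its SIRT5_WT call was lost without control replicate 3, SIRT5_WT replicate 1 or SIRT5_WT replicate 3 (edgeR adjusted p = 0.0516, 0.0708 and 0.0712).

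Markers of other cell types also differed between the groups. Of 7 tested fibroblast markers, 5 fell and 2 rose in each comparison with control, where 28.1% and 30.7% of all tested genes were lower and 28.7% and 30% higher. Macrophage markers summed to 173 to 206 CPM in control, 135 to 153 in SIRT5_WT and 143 to 183 in SIRT5_F101L, with 7 of 8 tested genes lower and 1 higher in SIRT5_WT, 6 lower and 1 higher in SIRT5_F101L (the same all-gene shares apply), and Itgam listed at 0. Since 99.1% of Itgam's exon sequence lies inside another gene's span, that 0 cannot be read as absence either. Osteoblast markers summed to 18.01 to 24.8, 4.12 to 4.79 and 3.51 to 5.21 CPM, and muscle markers to 7.59 to 9.06, 2.37 to 4.62 and 1.87 to 3.74. Of 3 tested osteoblast markers, 2 fell in each comparison, where 28.1% and 30.7% of all tested genes were lower. Most of the control sum was Ibsp, at 14.7 CPM against 0.284 in SIRT5_WT and 0.146 in SIRT5_F101L. Alpl averaged 2.85, 3.02 and 3.21 CPM. Endothelial markers, at 3.50 to 4.53, 2.60 to 3.76 and 2.93 to 3.91 CPM, had no gene called, and keratinocyte markers stayed at or under 0.641 CPM, with Krt5 and Krt14 at 3 counts or fewer in any library. The part of these shifts in the changes of the limb genes was not tested.

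Genes with the most similar pattern were sought for Tbx4, Pitx1 and Hoxc10, by the root mean square difference of log2 CPM over the 12 libraries after each gene was centred on its mean. Nearest to Tbx4 were Iars (0.0552), Cat (0.0594) and Lipa (0.0672). Nearest to Pitx1 were Smim20 (0.0394), Nbl1 (0.0524) and Rxrb (0.0581). Hoxc10 had no neighbour as close: Tbcc lay at 0.134, Coa4 at 0.139 and Smarcd3 at 0.143. Low counts add noise to this distance. Hoxc10 had 121 to 382 counts per library, against 606 to 1092 for Tbx4 and 1370 to 3109 for Pitx1. The part of that noise in the distance was not tested.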

How the data were processed

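Each library's deposited table pairs Ensembl gene IDs with raw read counts and has no header. Per the labels' protocols, poly(A) RNA was made into libraries with a NEBNext Ultra kit and sequenced as 150 bp paired-end reads. Per the submitters' processing notes, FastQC 0.11.9, HISAT2 2.2.1, HTSeq 2.0.2, DESeq2 1.38.3 and build GRCm39 were named; the annotation and the strand setting are not given in the sources used here. A supplied table named 52029 of the 57010 IDs.

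Counts were tested with edgeR 4.0.16 (R 4.3.3): TMM scaling, filterByExpr on the groups, and glmQLFit on the 12 libraries together (9 residual degrees of freedom, no covariate). Tests were two-sided, and p-values were adjusted by Benjamini-Hochberg over 14253 genes; genes with an adjusted p under 0.05 were called. The standard error is the log2 fold change divided by the square root of F. Confidence intervals are 95%. The biological coefficient of variation was 9.18%. One count was worth 0.0413 to 0.0662 CPM. Counts of libraries within a group differed by 2.55 to 8.92 times the sampling noise, so no library was a copy of another. The 10 genes, the markers, the lists and the rule for named genes (all 10; Tbx5, Hoxa13, Hoxd11, Hoxd12, Hoxd13, Lmx1b, Prrx1, Shox2, Col2a1 and Sox9; up to 3 called genes per list and direction averaging at least 1 CPM; the 3 genes most like Tbx4, Pitx1 and Hoxc10) were chosen with earlier results of these data known. Span overlap came from GENCODE M21 (GRCm38), used for lengths and overlaps only, and the level per free exon length was added after seeing the data. The pipeline was tested on simulated data. Alternatives were other scalings (RLE, upper quartile), no filter, a mean of 1 CPM, a robust prior, a length-trend offset (loess span 0.5), fits of 8 libraries, DESeq2 1.42.0 and leaving out each library. Some list genes are not reported here.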

Additional observations from a re-analysis of the deposited data

Results flagged for a closer look

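A sample far from its group was looked for in 69 sets of 4 libraries (23 measures in 3 groups, by Dixon's test), of which chance would flag 3.45. One set was flagged. Shox2, a limb mesenchyme factor, had 65.9 CPM in SIRT5_F101L replicate 2, against 57.9 to 58.8 in the other 3 libraries of the group. None of the 8 limb positional genes with counts had such a value.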

How the results depend on the processing

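All 120 alternative values of the 6 genes that fell kept their direction and side of the threshold in each comparison with control. Of 40 values for Hoxd9 and Hoxd10 in SIRT5_F101L against control, 2 moved past the threshold (Hoxd9, above), so that without SIRT5_F101L replicate 1 or 4 the members called there were 7, and 6 to 7 over all left-out libraries. For the other named genes, 10 of 539 values in SIRT5_WT (Kmt2a, Pax1) and 5 of 539 in SIRT5_F101L (Hoxa11os, Kmt2a) lost a call, and 7 of 100 (Lmx1b, Tbx5, Prrx1) and 2 of 100 (Prrx1, Shox2) gained one. Not all of the 7 settings that gained a call in SIRT5_WT are listed above. Between the plasmid groups 0 to 3 of the 8 genes were called when 1 library was left out, and 0 under every other alternative run. The number of all genes called there was 6 as reported, 354 with no filter, 2 with a robust prior, 19 with the length offset, 2 in the fit of 8 libraries, 43 by DESeq2, and 0 to 2213 with 1 library left out. Differences near 0 changed sign: between the plasmid groups, with 1 library left out, Hoxc10 ran from -0.24 to 0.0393, Hoxd10 from -0.172 to 0.0249 and Tbx4 from -0.0805 to 0.0176. Against control in SIRT5_WT, Hoxd11 ran from -0.219 to 0.0954 and Prrx1 from -0.0587 to 0.000609 in the same way; Hoxd11 was 0.00116 in the fit of 8 libraries. With the length offset Prrx1 was -0.149 in SIRT5_WT and -0.125 in SIRT5_F101L. With counts per exon length, the shares of HoxA, HoxB, HoxC and HoxD were 71.7%, 1.12%, 19.6%, 7.54% in control and 57.7%, 2.09%, 27.8%, 12.3% in SIRT5_WT; those of HoxA, HoxC and HoxD were 57.1%, 29.9% and 11.1% in SIRT5_F101L. Causes were not tested. No paired analysis was possible because the labels give no replicate numbers; those used here follow accession order. With as few as 44 counts in a library, Hoxd10 is limited by depth.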
